A study of Mus musculus with 6 samples.

Results

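The MHC class II presentation genes were read in RNA-seq of splenic Treg cells, the CD4+ Foxp3+ T cells that restrain immune responses, with and without miR-142. Their 9 members were chosen by symbol, from what they are known to do: the invariant chain gene Cd74, the class II chain genes H2-Aa, H2-Ab1 and H2-Eb1, the peptide editor genes H2-DMa and H2-DMb1, the regulator gene Ciita and the costimulatory ligand genes Cd86 and Cd80. The choice was made with earlier results of these data known. All 9 symbols were found among the 24421 genes of the count matrix. WT mice carried Foxp3Cre, in which the endogenous Foxp3 promoter drives a fusion of Cre recombinase and YFP, and KO mice carried the same Foxp3Cre together with miR-142fl/fl, so that miR-142 is removed where Foxp3 is active. All mice were untreated females of the C57BL/6 strain, 8 to 11 weeks old, and CD4+YFP+ cells were sorted from the spleen of 3 mice per genotype, 1 library per mouse. The KO animals develop autoimmune disease, so a direct effect of the deletion and an effect of the disease cannot be told apart. The comparison asked which class II genes differed between KO and WT Treg cells, and whether they did so in each KO library.

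MHC class II molecules are pairs of an alpha and a beta chain that carry peptides from the endosome to the cell surface and show them to CD4+ T cells. The invariant chain, made by Cd74, holds the new pair and fills its groove, endosomal proteases trim it, and the DM molecule exchanges the last fragment for a peptide, while the DO molecule (H2-Oa and H2-Ob) inhibits DM. CIITA is the coactivator that class II promoters depend on. B cells, dendritic cells and macrophages express the class II genes at high levels and mouse T cells at very low ones, and CD80 and CD86 on presenting cells bind CD28 and CTLA-4 on T cells.

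The mature products of the deleted gene are shown because the KO cells lack them, with the seed, bases 2 to 8, in capitals. Both lie on the plus strand of chromosome 11 (RefSeq, GRCm38.p6), miR-142a-5p at chr11:87756867-87756887 and miR-142a-3p at chr11:87756903-87756925. A search of the longest annotated 3′ UTR of each member found the 7-base complement of the 3p seed, ACACTAC, in 1 of the 9 members, against 7.71% of the 10793 tested genes with a 3′ UTR. That member was Ciita, whose site on the plus strand lies in the 30 bases at chr16:10527948-10527977, with the complement of the seed in capitals. The complement of the 5p seed, ACTTTAT, was in 0 of the 9 members, against 16.24% of those genes. The paper also used another miR-142-3p seed, for which it tested sites in Hif1a and Ifngr2. Its complement was not searched here. A match of letters is a description and does not show that the site is used.
miR-142a-5p: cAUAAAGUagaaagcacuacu
miR-142a-3p: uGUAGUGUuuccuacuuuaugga
Ciita 3′ UTR site: gttcccaggaccACACTACggaagggagaa

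The promoters of the class II genes are shown because they share letters that few other promoters hold in the same order. RefSeq promoters of 300 bases were given for 5 of the 9 members (H2-Aa, H2-Eb1, H2-DMa, H2-DMb1 and Cd80), and for H2-Oa, H2-Ob, H2-DMb2 and H2-Eb2 of the accessory genes. The letters TGATTGG, the core of the Y box that the NF-Y factor binds, and GCAAC, a core of the X box that the RFX complex binds, were searched on the promoter strand and its complement. They were chosen after the promoters had been read. TGATTGG was found in 7.817% of the 32851 promoters of the table, GCAAC in 35.207%, and GCAAC followed after a gap of 10 to 40 bases by TGATTGG, read on the promoter strand alone, in 0.152%, or 50 promoters. Promoters of H2-Aa, H2-Eb1, H2-Oa, H2-Ob and H2-Eb2 were among these 50, with gaps of 26, 25, 26, 23 and 25 bases. H2-DMb1 and H2-DMb2 held TGATTGG without GCAAC before it, and 1 of the 2 promoters given for H2-DMa and that of Cd80 held GCAAC without TGATTGG. Each line below gives 60 bases of chromosome 17 in the direction of transcription with these letters in capitals: chr17:34287859-34287918 (minus strand) for H2-Aa, and on the plus strand chr17:34305761-34305820 for H2-Eb1, chr17:34153083-34153142 for H2-DMb1 and chr17:34238801-34238860 for H2-Ob. The H2-DMb1 stretch is a promoter by the RefSeq start and lies just inside the gene by the GENCODE start.
H2-Aa: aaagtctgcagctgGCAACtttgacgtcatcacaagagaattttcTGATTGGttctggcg
H2-Eb1: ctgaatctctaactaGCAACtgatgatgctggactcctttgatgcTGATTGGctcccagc
H2-DMb1: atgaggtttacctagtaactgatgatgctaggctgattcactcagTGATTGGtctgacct
H2-Ob: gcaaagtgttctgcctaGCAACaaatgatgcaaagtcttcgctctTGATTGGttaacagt

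Total counts lay between 13883069 and 24042994 per library. Levels are given as CPM, counts scaled by TMM to a common library size, on which a count of 3 equals between 0.123 and 0.227 CPM. The targeted locus was checked with Mir142b, the antisense annotation over the miR-142 gene, which had 147, 101 and 105 counts in WT replicates 1 to 3 and 7, 5 and 5 counts in KO replicates 1 to 3, while the sense annotation Mir142 was at 0 in each library. Of 11658 genes in the test, which exceeded 1 CPM in 3 libraries or more, 1350 (11.6%) were higher and 847 (7.27%) lower in KO at a false discovery rate (FDR) below 0.05 in edgeR's quasi-likelihood F (QLF) test. Without TMM the split was 1064 higher and 1201 lower. The KO libraries were all above the WT libraries for 22.2% of these genes, and all below for 18.8%.

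KO replicate 1 stood apart from the other 5 libraries before any class II gene was compared, since it held transcripts of many other cell types. The markers of dendritic cells (8 genes) summed to 152.8 CPM in KO replicate 1, against 0.779 to 1.22 CPM in WT and 0.757 and 0.753 CPM in KO replicates 2 and 3. The 9 B cell markers summed to 318.9 CPM there, against 30.6 to 41.9 CPM in WT and 9.31 and 12.9 CPM in KO replicates 2 and 3. The 11 macrophage and monocyte markers summed to 2819 CPM in KO replicate 1, 43.1 to 53.3 CPM in WT, and 156.9 and 81.0 CPM in KO replicates 2 and 3. Each gene of the B cell, plasma cell, dendritic cell, macrophage and neutrophil lists was highest in KO replicate 1. Treg and T cell transcripts were abundant in every library: the 7 Treg and T cell markers summed to 5002 to 5692 CPM in WT and 6702, 7605 and 7665 CPM in KO replicates 1 to 3, and Foxp3 lay between 536.3 and 749.3 CPM. The KO sums were raised mostly by Il2ra, at 725.7 to 798.9 CPM in WT and 2258 to 3073 CPM in KO. Cd4 and Cd3e were below WT in every KO library, and 5 of the 7 markers were not above the WT range in KO replicates 2 and 3. The fits below were therefore also made without KO replicate 1, on the same 11658 genes, of which 11.5% were called higher and 7.17% lower without it.

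**Figure D1:**
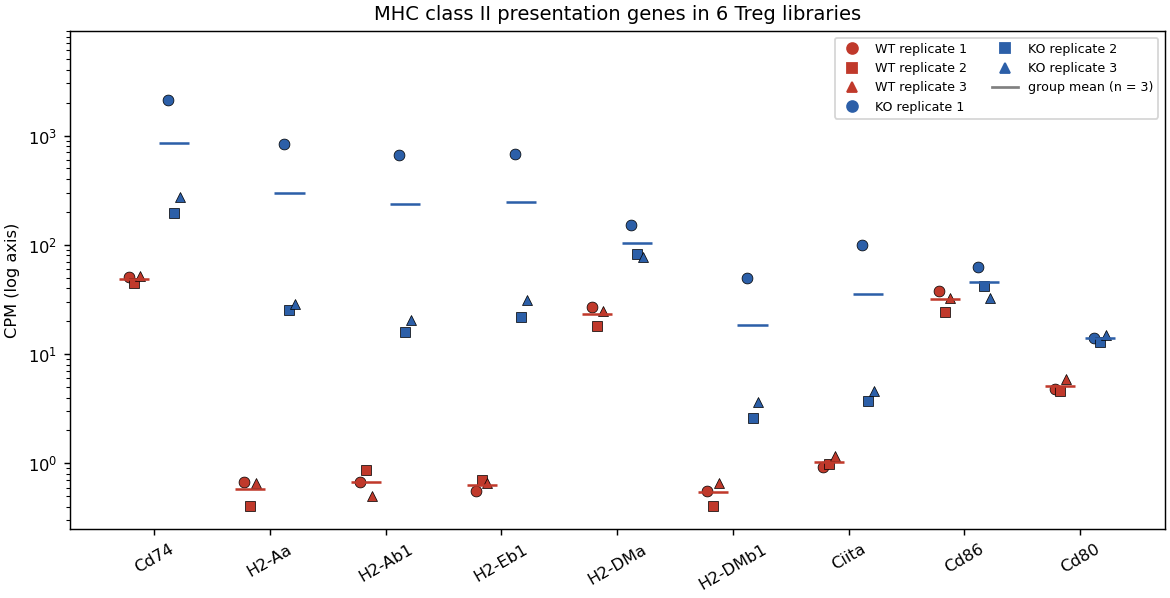
CPM (log axis) of the 9 members, with 1 point per library (red WT, blue KO, shape by replicate number) and a line at each group mean (n = 3). KO replicate 1 (blue circles) lies far above KO replicates 2 and 3 for Cd74, the class II chains, H2-DMb1 and Ciita, at 8.98 to 36.6 times their mean, and at 1.01 times their mean for Cd80.

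The classical class II chains were at the edge of detection in WT Treg cells and were present in each KO library. H2-Aa, the alpha chain of the A molecule, had 11, 10 and 12 counts in WT replicates 1 to 3 and 15160, 337 and 422 counts in KO replicates 1 to 3. In CPM these were 0.677, 0.410 and 0.664 in WT against 841.5, 25.5 and 28.9 in KO. The KO libraries did not overlap the WT libraries, and KO replicate 1 was 30.9 times the mean of the other KO libraries, which in turn was 46.6 times the WT mean. H2-Ab1, the beta chain that pairs with it, had 0.677, 0.861 and 0.498 CPM in WT and 667.0, 15.9 and 20.5 CPM in KO. H2-Eb1, the beta chain of the E molecule, had 0.554, 0.697 and 0.664 CPM in WT and 681.6, 22.0 and 31.1 CPM in KO. The 3 chains thus had the same order of libraries within KO, with replicate 1 highest and replicate 2 lowest. The alpha chain partner of H2-Eb1, annotated as H2-Ea-ps, a gene whose C57BL/6 allele is not expressed, had 0 counts in every library.

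With all 6 libraries the model log2 fold changes of the 3 chains were 9.03 (SE 1.88, FDR = 0.0184) for H2-Aa, 8.39 (SE 1.89, FDR = 0.0236) for H2-Ab1 and 8.55 (SE 1.76, FDR = 0.0175) for H2-Eb1. Without KO replicate 1 they were 5.56 (SE 0.24, FDR = 1.6e-05), 4.71 (SE 0.27, FDR = 6.17e-05) and 5.35 (SE 0.25, FDR = 2.19e-05), which are fold changes of 47.3, 26.1 and 40.7. The 95% interval for H2-Aa ran from 4.61 to 13.44 with all libraries and from 5.02 to 6.11 without KO replicate 1. The 3 chains and H2-DMb1 had 0 WT libraries above 1 CPM and passed the filter on low counts only through the KO libraries, so that they had to differ, and their calls are no support for a difference beyond the values themselves. For the same reason they fell below the filter of the usual fit whenever a KO library was left out. Without WT replicate 1, 2 or 3 the QLF test of the 3 chains gave FDRs between 0.0718 and 0.0989, so that each of these libraries was needed for the calls with KO replicate 1 included.

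The 3 chains had counts of similar size within each KO library. H2-Aa had 1.26, 1.60 and 1.41 counts for each H2-Ab1 count in KO replicates 1 to 3, and 1.23, 1.16 and 0.930 for each H2-Eb1 count. H2-Ab1 had 0.979, 0.724 and 0.661 counts for each H2-Eb1 count. In WT, where each chain had at most 21 counts, H2-Aa had 1.0, 0.476 and 1.33 counts for each H2-Ab1 count and 1.22, 0.588 and 1.0 for each H2-Eb1 count. Per kilobase of annotated exon, the mean levels of KO replicates 2 and 3 were 7.16 CPM for H2-Aa, 7.09 CPM for H2-Ab1 and 13.6 CPM for H2-Eb1, against 0.154, 0.264 and 0.328 CPM in WT. H2-Aa and H2-Ab1 were at nearly the same level on this scale with the union of exons as the length, while with the longest transcript H2-Ab1 was at 15 CPM per kilobase and H2-Aa at 8.44.

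Cd74 was the member with the highest level per kilobase in every library, and unlike the chains it was well above detection in WT. It had 50.4, 44.7 and 51.5 CPM in WT (48.9 ± 3.63, SD, n = 3) and 2097, 194.0 and 272.8 CPM in KO (855 ± 1077, SD, n = 3). No KO library overlapped WT, and the mean of KO replicates 2 and 3 was 4.78 times the WT mean. The log2 fold change was 4.13 (SE 0.93, 95% interval 1.95 to 6.30, FDR = 0.0234), and 2.26 (SE 0.15, 1.91 to 2.61, FDR = 0.000125) without KO replicate 1. Leaving out WT replicate 1, 2 or 3 instead moved the FDR to 0.0879, 0.102 and 0.0887, and without KO replicates 2 and 3 it was 0.0128 and 0.0265. Cd74 and the chains did not move in proportion. There were 0.00917 to 0.0134 H2-Aa counts for each Cd74 count in WT, 0.401 in KO replicate 1, and 0.132 and 0.106 in KO replicates 2 and 3.

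The genes of the DM molecule differed from each other in level. H2-DMa, its alpha chain, had 27.0, 18.2 and 25 CPM in WT and 150.6, 81.7 and 76.7 CPM in KO, so that KO replicate 1 was 1.90 times the mean of the other KO libraries. Its log2 fold change was 2.14 (SE 0.29, FDR = 0.0043), and 1.76 (SE 0.16, FDR = 0.000468) without KO replicate 1. Whichever single library was left out, H2-DMa was called higher, with an FDR of at most 0.0273. H2-DMb1, a beta chain of DM, had 9, 10 and 12 counts in WT and 895, 34 and 53 counts in KO, or 0.554, 0.410 and 0.664 CPM against 49.7, 2.57 and 3.63 CPM. It was thus low in KO replicates 2 and 3 as well, although above each WT library. The log2 fold change was 5.11 (SE 1.28, FDR = 0.0333), and 2.53 (SE 0.35, FDR = 0.00256) without KO replicate 1, while leaving out WT replicates 1, 2 or 3 gave FDRs of 0.108, 0.131 and 0.108.

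The balance of the DM alpha and beta chain genes differed between libraries. H2-DMa had 48.7, 44.4 and 37.7 counts for each H2-DMb1 count in WT, 3.03 in KO replicate 1, and 31.7 and 21.2 in KO replicates 2 and 3. Per kilobase of exon, KO replicate 1 had 43.7 CPM of H2-DMa and 29.6 CPM of H2-DMb1, and KO replicate 2 had 23.7 and 1.53 CPM. Reads were counted without regard to strand, and 8.39% of the possible 51-base reads of H2-DMa also fell on Brd2, which overlaps it on the opposite strand and had a log2 fold change of 0.08 (FDR = 0.498). Brd2 had a WT mean of 509.8 CPM, against 23.4 CPM for H2-DMa. The part of Brd2 reads in the H2-DMa counts and ratios was not tested. For H2-DMb1, 22.3% of such reads matched its near copy H2-DMb2, so that counts of this pair are uncertain. H2-DMb2, the other DM beta chain, had 1.35, 0.451 and 0.719 CPM in WT and 20.4, 3.03 and 2.26 CPM in KO, all above WT.

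Ciita, the regulator on which class II promoters depend and the member with the searched miR-142-3p seed complement in its 3′ UTR, had the lowest mean level per kilobase of the members in WT. It had 15, 24 and 21 counts in WT and 1780, 49 and 67 counts in KO. In CPM these were 0.924, 0.984 and 1.16 against 98.8, 3.71 and 4.58, with no overlap between the groups. KO replicate 1 was 23.8 times the mean of KO replicates 2 and 3, which was 4.05 times the WT mean. The log2 fold change was 5.12 (SE 1.4, 95% interval 1.85 to 8.40, FDR = 0.0432), and 2.01 (SE 0.28, 1.37 to 2.66, FDR = 0.00259) without KO replicate 1. The call with KO replicate 1 was lost without WT replicate 1, 2 or 3 (FDR = 0.132, 0.152 and 0.132), and Ciita had 1 WT library above 1 CPM, so that it too reached the tested genes through its KO libraries. Its overlap with Dexi on the opposite strand covered 1.42% of the possible reads.

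The costimulatory ligands were split, Cd80 being higher in KO in each library and Cd86 overlapping. Cd80, the ligand that binds CTLA-4 most tightly, had 4.8, 4.63 and 5.86 CPM in WT and 14, 12.9 and 15 CPM in KO. Its KO libraries lay close together, with a SD of 1.06 around a mean of 14 CPM, and KO replicate 1 did not stand out. The log2 fold change was 1.45 (SE 0.17, 95% interval 1.05 to 1.86, FDR = 0.00275), and 1.45 (SE 0.20, FDR = 0.00229) without KO replicate 1. Cd80 was called higher whichever single library was left out, with an FDR of at most 0.0225.

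Cd86, the other B7 ligand, had 37.9, 24.3 and 32.6 CPM in WT and 62.7, 41.6 and 32.5 CPM in KO. KO replicate 3 lay within the WT range, and the log2 fold change of 0.53 (SE 0.26, 95% interval -0.08 to 1.15) did not pass the QLF test (FDR = 0.196). Without KO replicate 1 it was 0.23 (95% interval -0.22 to 0.69, FDR = 0.455). The interval does not show that Cd86 was equal in the groups, since it holds changes up to 1.15 on the log2 scale. Cd86 had 7.90, 5.24 and 5.57 counts for each Cd80 count in WT and 4.47, 3.24 and 2.17 in KO, with the KO libraries below the WT libraries.

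Per kilobase of exon, the order of mean levels in WT was Cd74 (29.1 CPM), Cd86 (8.64), H2-DMa (6.78), Cd80 (1.38), H2-Eb1 (0.328), H2-DMb1 (0.323), H2-Ab1 (0.264), H2-Aa (0.154) and Ciita (0.107). With the longest transcript as the length, H2-Ab1 (0.560) was above H2-DMb1 (0.387) and H2-Eb1 (0.382), and H2-DMa was at 11.7, still below Cd86 at 12.5. The gap between Cd86 and H2-DMa was smaller than the SD of Cd86 (1.88), and the gaps among H2-Eb1, H2-DMb1 and H2-Ab1 were smaller than the SD of H2-DMb1 (0.0758). In the mean of KO replicates 2 and 3 the order was Cd74 (139 CPM per kilobase), H2-DMa (23.0), H2-Eb1 (13.6), Cd86 (10.1), H2-Aa (7.16), H2-Ab1 (7.09), Cd80 (3.76), H2-DMb1 (1.84) and Ciita (0.435). The class II chains thus moved from below Cd80 in WT to above it in these libraries. On the exon union, H2-Aa and H2-Ab1 differed by less than the gap between the libraries.

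Counted over the members, 8 of the 9 were higher in KO and 0 were lower in the QLF test with all 6 libraries, against 11.6% higher over all genes tested. The members were chosen with earlier results of these data known, so this count is a description and not an independent test. At an unadjusted p below 0.05 in the QLF test, 8 members were higher and 0 lower, against 2299 and 1761 of the 11658 genes tested. By DESeq2 the count of lower members was also 0. The same 8 were called without KO replicate 1, against 11.5% over all genes. Of the 8 members called, Cd74, H2-DMa and Cd80 had all 3 WT libraries above 1 CPM, and the other 5 entered the test only with the help of KO libraries. DESeq2 called 3 members and returned no adjusted p for the 5 others of the 8, because its outlier filter removed them. The median log2 fold change of the 9 members was 5.11, and 2.26 without KO replicate 1, where the median over all genes tested was 0.02 and 0.01.

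**Figure D2:**
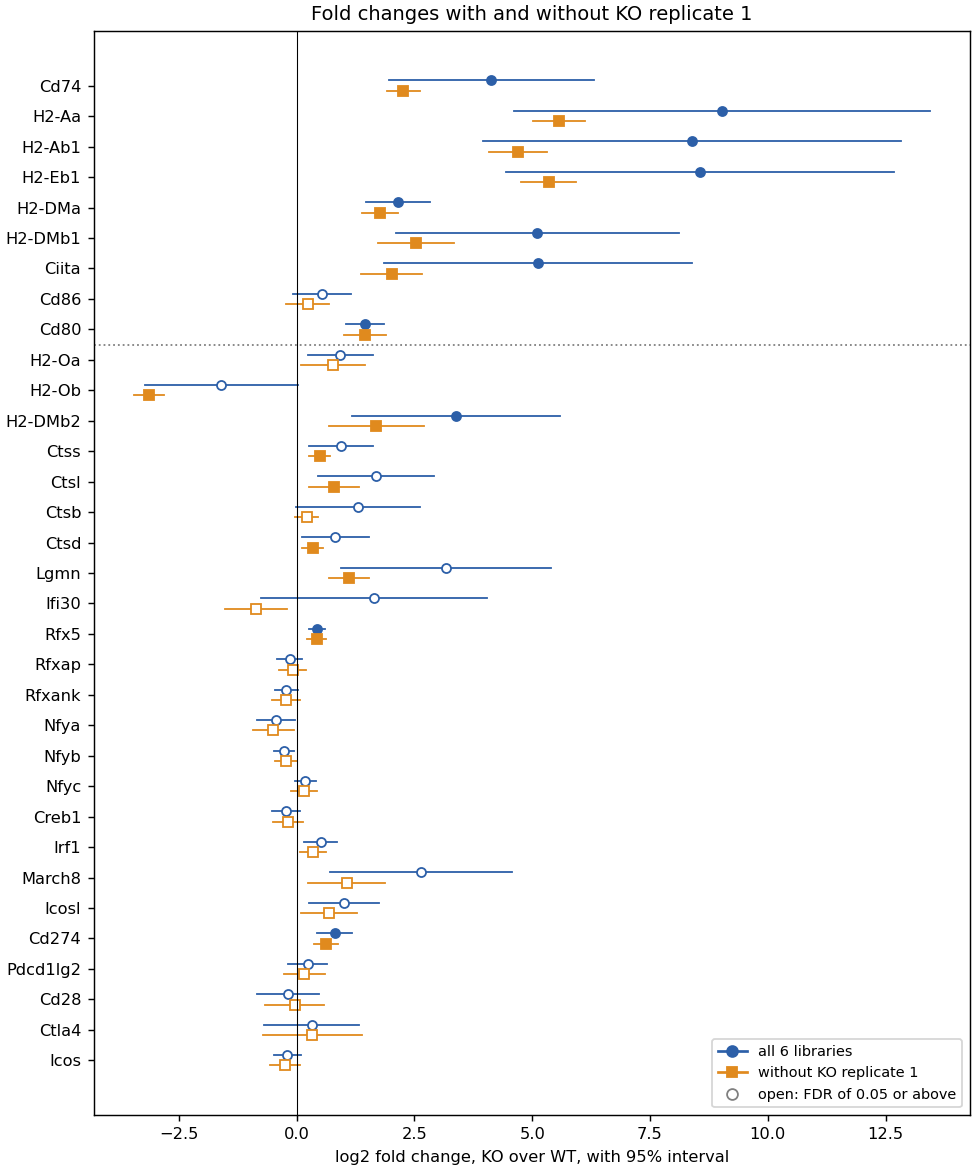
log2 fold changes (KO over WT) with 95% intervals for the 9 members (above the dotted line) and 24 of the 25 tested accessory genes, from all 6 libraries (blue circles) and without KO replicate 1 (orange squares); open symbols have an FDR of 0.05 or above. The class II chains have wide intervals with KO replicate 1 and narrow ones without it (H2-Aa 4.61 to 13.44 and 5.02 to 6.11), while H2-Ob moves from -1.60 to -3.14.

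The other class II genes did not share one direction. H2-Ob, the beta chain of the DM inhibitor DO, went the other way from the classical chains, with 62.5, 58.5 and 59.6 CPM in WT against 45.3, 7.27 and 6.36 CPM in KO. Every KO library was below WT, and KO replicate 1 was 6.65 times the mean of the other KO libraries. With all libraries the log2 fold change of -1.60 (SE 0.70, 95% interval -3.23 to 0.03) did not pass the QLF test (FDR = 0.15). Without KO replicate 1 it fell by 3.14 on the log2 scale (SE 0.14, FDR = 1.6e-05), to 0.113 times the WT level. H2-Oa, the alpha chain of DO, had 13.5, 7.01 and 12.9 CPM in WT and 25.7, 15.4 and 22.5 CPM in KO, or 0.93 on the log2 scale (FDR = 0.0669), and 0.78 (FDR = 0.105) without KO replicate 1. H2-Oa shared 15.3% of its possible reads with an antisense gene, BC051537. H2-DMb2 was called higher (log2 fold change 3.38, FDR = 0.0457), also without KO replicate 1 (1.69, FDR = 0.0328). It had 1 WT library above 1 CPM and, like Ciita, reached the tested genes through its KO libraries. It was not called without WT replicate 1, 2 or 3 (FDR = 0.0967, 0.164 and 0.144). H2-Eb2 was at or below 0.111 CPM in WT and at 11.2, 0.454 and 0.0684 CPM in KO, and was not tested.

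Among the endosomal proteases and the thiol reductase that prepare peptides and cleave the invariant chain, 0 of 6 were called in the QLF test with all libraries. However, 4 were higher at an unadjusted p below 0.05 in this test, where 2299 of the 11658 genes tested were. DESeq2 called 3 higher, with 1 not given an adjusted p. Over all genes tested, 11.6% were called higher by the QLF test and 14.3% by DESeq2. Ctss, the main protease of the invariant chain in presenting cells, had 254.8, 251.8 and 233.4 CPM in WT and 727.6, 343.0 and 349.3 CPM in KO. Without KO replicate 1, 4 of the 6 were called higher, against 11.5% over all genes: Ctss (log2 fold change 0.49, FDR = 0.0110), Ctsl (0.79, FDR = 0.0477), Ctsd (0.34, FDR = 0.0483) and Lgmn, which encodes legumain (1.11, FDR = 0.00575). Ctsb gave 0.21 (FDR = 0.196). Ifi30, the reductase, had 20.3, 14.8 and 15.4 CPM in WT and 138.4, 6.21 and 12.1 CPM in KO, and its log2 fold change turned from 1.64 (FDR = 0.296) to -0.87 (FDR = 0.0690) without KO replicate 1. KO replicate 1 was thus above WT for each of these 6 genes and alone set the direction of Ifi30.

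Of the 9 promoter factors and upstream regulators, 2 were called higher and 0 lower in the QLF test, against 11.6% and 7.27% over all genes. At an unadjusted p below 0.05 in this test, 3 were higher and 2 lower, against 2299 and 1761 of the 11658 genes tested. DESeq2 called 3 higher, against 14.3% of all genes tested, and 0 lower. Rfx5, a subunit of the RFX complex that binds the X box, had 89.6, 88.9 and 85.6 CPM in WT and 119.7, 116.0 and 120.2 CPM in KO, which is 0.43 on the log2 scale (SE 0.07, FDR = 0.00902), and 0.42 (FDR = 0.0138) without KO replicate 1. Its call was lost without WT replicate 2 or 3 (FDR = 0.0562 and 0.0574). Irf1, a transcription factor that activates Ciita, gave a log2 fold change of 0.51 (FDR = 0.0510), and 0.35 (FDR = 0.0747) without KO replicate 1. The other RFX subunits Rfxap (-0.15, FDR = 0.409) and Rfxank (-0.22, FDR = 0.188), the NF-Y subunits Nfya (-0.43, FDR = 0.123), Nfyb (-0.27, FDR = 0.0831) and Nfyc (0.18, FDR = 0.227), and Creb1 (-0.22, FDR = 0.243) did not pass, and without KO replicate 1 these 6 genes lay between -0.49 and 0.16, with FDRs of 0.106 or more.

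Of the remaining accessory genes, Cd274, which encodes PD-L1, was called higher. It had 134.7, 143.6 and 164.4 CPM in WT and 319.7, 234.2 and 220.5 CPM in KO, which is 0.81 on the log2 scale (SE 0.16, FDR = 0.0148), and 0.62 (FDR = 0.00824) without KO replicate 1. It was not called without WT replicate 1 or 2 (FDR = 0.0656 and 0.0723). Icosl (1.01, FDR = 0.0668), Pdcd1lg2 (0.23, FDR = 0.384), and the receptors Cd28 (-0.19, FDR = 0.679), Ctla4 (0.32, FDR = 0.642) and Icos (-0.20, FDR = 0.291) did not pass. Without KO replicate 1 these 5 genes lay between -0.25 (Icos) and 0.68 (Icosl), with FDRs of 0.107 or more. March8, a ligase that marks class II molecules for removal, gave 2.63 (FDR = 0.0650), and 1.06 (FDR = 0.0735) without KO replicate 1. Its relative March1 and the receptor gene Cd40 were below the filter, with 40.1 and 16.9 CPM in KO replicate 1 and at most 1.06 CPM elsewhere. Over the 25 accessory genes tested of 29, the QLF test called 4 higher (16%, against 11.6% over all genes) and 0 lower (against 7.27%). Their median log2 fold change was 0.51 against 0.02 over all genes. Without KO replicate 1 this test called 8 higher (against 11.5% over all genes) and 1 lower (H2-Ob, against 7.17%), with a median of 0.34 against 0.01. DESeq2 called 11 higher, where it called 14.3% of all genes tested higher, and 0 lower. At an unadjusted p below 0.05 in the QLF test, 12 were higher and 2 lower. At that p, 2299 of the 11658 genes tested were higher and 1761 lower.

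The marker genes of presenting cells were read beside the class II genes in KO replicates 2 and 3. Of the defining markers, the B cell genes Ms4a1 and Pax5 had 0 and 1 counts in KO replicate 2 and 2 and 0 in KO replicate 3, and the dendritic cell genes Itgax, Clec9a and Siglech had 3, 1 and 1 counts and 0, 0 and 0. The B cell list as a whole was lower in both libraries than in WT. The dendritic cell sum of WT libraries was mostly Xcr1, at 0.656 to 1.11 CPM. With Xcr1 left out, which was done after the values were seen, the other 7 dendritic cell genes summed to 0 to 0.123 CPM in WT and to 0.454 and 0.342 CPM in KO replicates 2 and 3, above WT, where with Xcr1 the sums were below it. The macrophage list was above WT in both, and its genes differed between the 2 libraries: C1qa had 86 and 4 counts, Csf1r 167 and 13, Lyz2 15 and 32, and Vcam1 464 and 163, where the WT libraries had 15 Csf1r counts or fewer. Ccr2 made up most of the WT sum of this list, at 37.2 to 49.1 CPM, and was at 81.5 and 60.9 CPM in KO replicates 2 and 3. In KO replicate 3, 2 genes of the list, C1qa and C1qb, were not above the WT range, and in KO replicate 2 this held for 0. Neutrophil markers summed to 0.454 CPM in KO replicate 2 and 5.06 CPM in KO replicate 3, against 0.221 to 0.328 CPM in WT, and plasma cell markers to 104.8 and 112.4 CPM, against 79.4 to 99.2 CPM. The plasma cell sum was mostly Xbp1, at 77.0 to 97.9 CPM in WT and 103.3 and 102.9 CPM in KO replicates 2 and 3. Jchain was at 1.29 and 8.49 CPM in these KO libraries, against 0.996 to 2.91 CPM in WT. The part of macrophage transcripts in the class II values was not tested. In bulk libraries such as these, more cells of a type and more RNA per cell cannot be told apart.

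**Figure D3:**
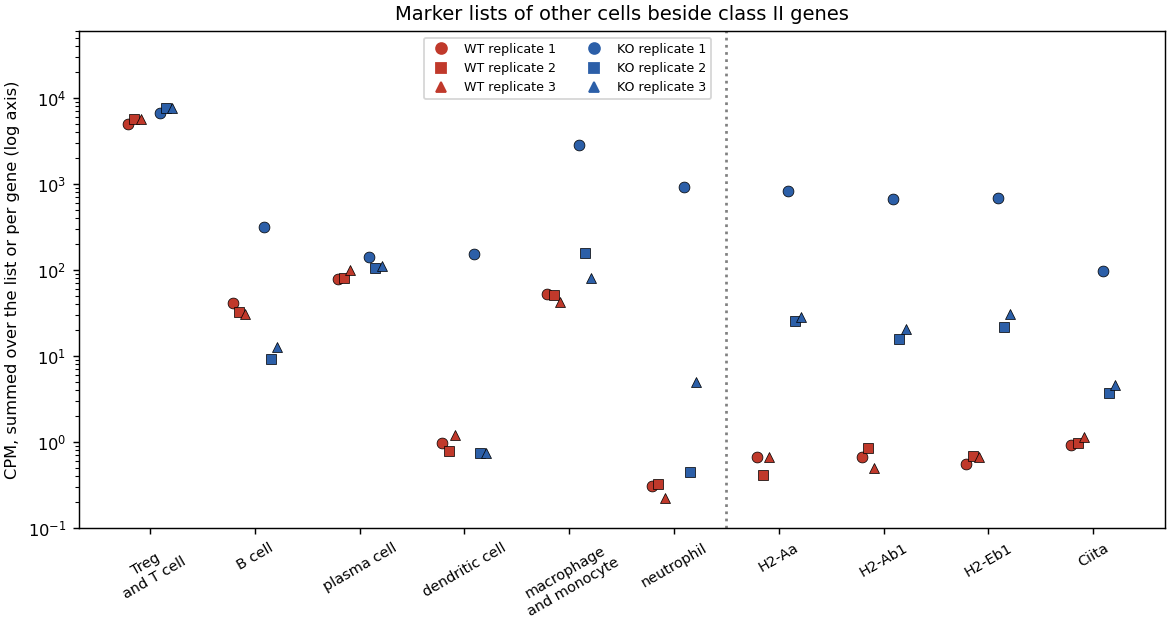
CPM (log axis) summed over 6 marker lists (left of the dotted line) and of 4 class II genes (right), with 1 point per library. KO replicates 2 and 3 lie below WT for the B cell list (9.31 and 12.9 CPM) and for the dendritic cell list (0.757 and 0.753 CPM, but above WT without Xcr1), above WT for the macrophage list (156.9 and 81.0 CPM), and above WT for H2-Aa, H2-Ab1, H2-Eb1 and Ciita. Of these macrophage sums, Ccr2 made up 81.5 and 60.9 CPM.

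Ratios within a library show how far the class II counts followed single marker genes. H2-Aa had 2.27 counts for each count of the macrophage gene Lyz2 in KO replicate 1, and 22.5 and 13.2 in KO replicates 2 and 3. Against C1qa the ratios were 2.98, 3.92 and 105.5, and against Csf1r 1.32, 2.02 and 32.5, so that KO replicate 2 was near KO replicate 1 for these macrophage genes and KO replicate 3 was far above both. Against the B cell gene Cd79a they were 24.6, 21.1 and 18.3 in KO and 0.217 to 0.279 in WT, where Cd79a itself was at 34.2 CPM in KO replicate 1, 1.21 and 1.57 CPM in KO replicates 2 and 3, and 1.89 to 2.89 CPM in WT. In WT, H2-Aa had 1 to 5.5 counts for each Lyz2 count, 1.67 to 11 for each C1qa count and 0.8 to 1.38 for each Csf1r count. These WT ratios rest on 15 or fewer counts of each gene. The ratios of KO replicates 2 and 3 also rest on few marker counts, except those of C1qa and Csf1r in KO replicate 2 (86 and 167 counts).

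The tested genes whose pattern over the 6 libraries was closest to that of a member were found by the root mean square distance of log2(CPM + 0.5), each gene centred on its WT mean. For Cd74 these were Ccl3 (distance 0.20), Mef2c (0.24), H2-DMb1 (0.27), Sash1 (0.29) and Serpina3f (0.38). For Ciita they were H2-DMb1 (0.22), Marcks (0.22) and Sort1 (0.27), each with its highest level in KO replicate 1. For Cd80 they were Rasip1 (0.11), Trove2 (0.12) and Adarb1 (0.14), whose KO libraries lay close together like its own, and for Cd86 Paox (0.11), Aph1b (0.11) and Emid1 (0.12). Of the 5 nearest genes, 0 were shared without KO replicate 1 for Cd74, Ciita and Cd86, and 1 for Cd80.

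Within the mouse MHC on chromosome 17 (GENCODE, GRCm38), the genes from H2-Oa to H2-Eb2 span 249.1 kb, from 34092340 to 34341412. H2-DMa lies at 34119541 to 34139101, H2-DMb1 at 34153072 to 34160230, H2-Ab1 at 34257689 to 34269419, H2-Aa at 34282744 to 34287823 on the minus strand, and H2-Eb1 at 34305867 to 34316674. Ciita (10480059 to 10528418), Cd86 (36603869 to 36666081) and Cd80 (38455561 to 38496335) lie on chromosome 16. The class II stretch was looked at after its values had been seen. It also holds 5 tested genes of other kinds, of which Tap1, Tap2, Psmb8 and Psmb9 serve class I presentation. Tap1 (log2 fold change 0.65, FDR = 0.0106), Psmb8 (1.0, FDR = 0.00369) and Tap2 (0.71, FDR = 0.00457) were higher. Psmb9 (0.40, FDR = 0.147), whose KO and WT libraries overlapped, and Brd2 (0.08, FDR = 0.498) did not pass. Without KO replicate 1, Tap1 (0.55, FDR = 0.00973), Psmb8 (0.97, FDR = 0.00283) and Tap2 (0.64, FDR = 0.00438) were also called higher, and Psmb9 (0.22, FDR = 0.303) was not. Over all genes tested, 11.6% were called higher with all libraries and 11.5% without KO replicate 1. In KO replicates 2 and 3, H2-Ob at 0.113 times its WT level lies next to H2-Ab1 at 26.8 times.

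**Figure D4:**
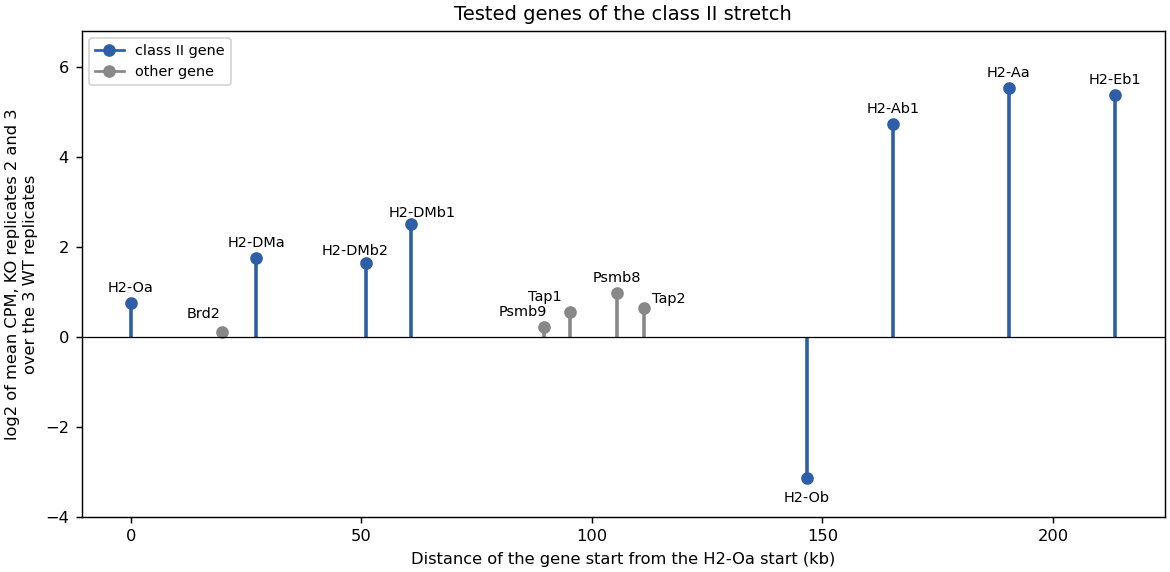
log2 of the mean CPM of KO replicates 2 and 3 over the mean of the 3 WT libraries (vertical axis) for the 13 tested genes of the class II stretch, against the distance of each gene's lowest coordinate from that of H2-Oa in kb. H2-Ob lies below 0, next to H2-Ab1, H2-Aa and H2-Eb1 at 26.8, 46.6 and 41.5 times WT. The class I presentation genes Tap1, Psmb8, Tap2 and Psmb9 lie at 1.46, 1.96, 1.56 and 1.17 times.

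Promoters with GCAAC followed by TGATTGG belonged to 46 gene symbols, of which 21 were tested and 17 of these were not H2 genes. Among the 17, 3 (17.6%) were called higher and 0 lower in the QLF test, against 11.6% higher over all genes, and 2 were called higher and 0 lower without KO replicate 1, so that their share was near the background. The letters that H2-Ob shares with H2-Aa and H2-Eb1 therefore stood before genes that moved in opposite directions in KO replicates 2 and 3.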

How the data were processed

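RNA-seq libraries were made from splenic CD4+YFP+ Treg cells of 3 WT and 3 KO mice. The deposited matrix holds raw counts per gene, which the authors made from 51-base single-end reads mapped to mm10 by HISAT, with unstranded counting by featureCounts (aligner version not given in the sources used here). Its 6 sample columns were used, and 0 others were present. Genes exceeding 1 CPM in 3 or more libraries were kept, scaled by TMM in edgeR 4.0.16 (R 4.3.3), and tested with the QLF test without robust estimation, an FDR below 0.05 (Benjamini-Hochberg over all 11658 genes) counting as called. CPM were computed on TMM-scaled library sizes. The scripts were tested on simulated data. The members and lists were chosen with earlier results of these data known. Genes named were the members, the accessory and marker lists, and the 5 or 3 genes nearest in pattern to Cd74, Ciita, Cd86 and Cd80. Tap1, Tap2, Psmb8, Psmb9, Brd2 and BC051537 were named after their values were seen. The values of some single genes of these lists are not reported here. With 3 mice against 3, an exact two-sided permutation test cannot give a p below 0.1, so no such test was used. Each library came from 1 mouse, and intervals of ratios were not computed. Alternatives covered normalization, filter, tool (DESeq2 1.42.0), test, threshold, replicate block and each library left out. Lengths and coordinates came from GENCODE vM21 (GRCm38), and miRNA and promoter sequences from RefSeq (GRCm38.p6). Depth ranged from 13883069 to 24042994 counts, so 3 counts equal at most 0.227 CPM.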

Additional observations from a re-analysis of the deposited data

How the results depend on the processing

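H2-DMa and Cd80 were called higher under all 16 alternatives, Cd86 under 0 of 16, and each of the 9 members kept a positive log2 fold change in every alternative that tested it. Of the 8 members called higher, 3 were called by DESeq2, 2 by robust QLF and 2 at an FDR of 0.01, and between 2 and 4 when 1 library was left out, where in the 3 fits without a KO library the 4 members with no WT library above 1 CPM were not tested. The fit without KO replicate 1 on the genes of the full fit, chosen after seeing the data, called 8. The 4 accessory genes called higher became 11 with DESeq2 and with the exact test, 12 with the likelihood ratio test, 8 without KO replicate 1 on the genes of the full fit, 1 at an FDR of 0.01 and between 0 and 10 with 1 library left out. The 0 called lower became 1 without TMM, 1 with the replicate block, 1 without KO replicate 1 on the genes of the full fit, and between 0 and 2 with 1 library left out. Over all genes, an FDR of 0.01 left 490 higher and 196 lower, leaving out 1 library gave between 483 and 1403 higher and between 208 and 937 lower, and without TMM 1064 were higher and 1201 lower. With 1 library left out the log2 fold change of Ifi30 ran from -0.887 (without KO replicate 1, and -0.87 on the genes of the full fit) to 2.17, and that of Ctla4 from -0.059 (without WT replicate 1) to 0.883. The causes were not tested. With the replicate block 1061 genes were higher, 545 lower and 7 members called, Ciita being lost (3.61, FDR = 0.0632). The block rests on a number alone, since same-numbered libraries correlated at 0.0804, -0.0056 and -0.195 in their deviations. No WT library correlated best with the KO library of its own number, while among the KO libraries only KO replicate 1 correlated best with the WT library of its number. Under the nearest-pattern measure with a pseudocount of 2, 2 of the 5 genes nearest to Cd74 were shared.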
